A study of Mus musculus with 21 samples.

Results

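Cortical layer identity factors are the transcription factors by which the neurons of the cerebral cortex acquire and keep the character of a deep or an upper layer. The 9 genes described here were chosen by name: Tbr1, Fezf2, Bcl11b and Sox5 of the deep layers, Cux1, Cux2, Pou3f2 and Pou3f3 of the upper layers, and Prdm8, a gene of migrating and differentiating cortical neurons. Each name had 1 row in every expression file, so all 9 were found among 23351 gene symbols (23827 rows). A gene was tested where at least 1 library of a comparison had a read, which left all 9 in every comparison.

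Polyadenylated RNA of mouse embryos at E14.5 was sequenced in 21 libraries of 7 groups with 3 replicates each. The question was which reference is suited to finding the transcripts of a cell population by translating ribosome affinity purification (TRAP). In TRAP the ribosomal protein Rpl10a carries a tag, here mCherry, that Cre recombinase switches on, and the RNA held by tagged ribosomes (the translatome) is pulled down and sequenced; the transcriptome is total RNA of the same tissue. The forebrain and kidney transcriptomes and translatomes came from Sox2Cre+/-;Gt(ROSA)26Sor-mCherry-Rpl10a+/- embryos, in which the tag is on throughout the embryo proper. The brain and kidney endothelial cell (EC) translatomes came from Cdh5CreERT2+/-;Gt(ROSA)26Sor-mCherry-Rpl10a+/- embryos of tamoxifen-treated dams, and the Emx1-lineage translatome came from the forebrain of Emx1Cre+/-;Gt(ROSA)26Sor-mCherry-Rpl10a+/- embryos. Every embryo thus carried 1 copy of the tagged allele, driven by the ubiquitous CAGGS promoter, and a different Cre driver stood behind each cell population. A forebrain sample pooled 2 organs and included part of the diencephalon, a whole-kidney sample pooled 4 organs and a kidney EC sample 6. Total reads on genes ranged from 21760652 to 79231692 per library. Levels are given as the deposited RPKM (reads on a gene, divided by its length and by the depth of the library). On GRCm38 the deep-layer genes lie at chr2:61802863-61814114 (Tbr1), chr14:12338992-12346803 (Fezf2), chr12:107910403-108004145 (Bcl11b) and chr6:143828425-144782287 (Sox5). The upper-layer genes lie at chr5:136248135-136567590 (Cux1), chr5:121857962-122050415 (Cux2), chr4:22482095-22488366 (Pou3f2) and chr1:42695768-42700210 (Pou3f3), and Prdm8 lies at chr5:98167203-98187454.

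In the developing cortex the deep layers are born before the upper ones. Tbr1 marks the corticothalamic neurons of the deepest layer, Fezf2 and Bcl11b (also called Ctip2) act in subcerebral projection neurons, and Sox5 times the appearance of the deep-layer types. The Cut-like homeodomain proteins Cux1 and Cux2 and the POU-domain proteins Pou3f2 (Brn2) and Pou3f3 (Brn1) are used in progenitors and neurons of the upper layers, and Prdm8 is a histone methyltransferase-like repressor of migrating neurons. Several are also used outside the cortex: Bcl11b in the striatum, Pou3f3 in the kidney, and Cux1 in many tissues.

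The libraries carried the markers their labels name. Emx1, the gene whose Cre driver marks the dorsal telencephalon, was at 91.6, 102 and 93.3 RPKM in the Emx1-lineage translatome against 53.4, 47.4 and 52.8 RPKM in the forebrain translatome. All 8 markers of the dorsal telencephalic lineage were higher in the Emx1 lineage, all 10 of the ventral telencephalon and GABAergic neurons and all 5 of the diencephalon were lower, and so were all 8 endothelial, 5 mural and 5 microglial markers. The summed level of the ventral markers was 316 to 342 RPKM in the forebrain translatome and 73.9 to 80.3 RPKM in the Emx1 lineage, and none was at 0. Of the 5 Cajal-Retzius markers, 2 were higher and 2 lower, of the 4 erythroid markers tested none was called, and of the 6 kidney markers tested 1 was lower. The Emx1-lineage libraries were sequenced on a lane of their own, so for the comparisons with the whole forebrain the lane and the group cannot be told apart. The brain EC and the kidney EC libraries also each had a lane of their own. Forebrain and kidney shared no lane among the transcriptomes, nor among the whole-organ translatomes. Lane and group cannot be told apart in those comparisons either.

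The 4 deep-layer genes were each higher in the Emx1-lineage translatome than in the forebrain translatome, by a log2 fold change of 1.01 or more for Tbr1, Fezf2 and Sox5 and by less for Bcl11b. Beside these, that of Emx1 itself was 0.96. Tbr1 was at 186, 179 and 183 RPKM in the Emx1 lineage and at 83.9, 92.3 and 83.2 RPKM in the forebrain translatome. The 3 Emx1-lineage libraries stood above all 3 whole-forebrain libraries. The log2 fold change was 1.13 ± 0.05 (SE, edgeR adjusted p = 1.3e-10, n = 3 against 3), a 2.19-fold difference, and of 9489 genes with a mean of at least 5 RPKM in the forebrain translatome 14 had a larger one.

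Fezf2, a zinc finger repressor, was at 98.9, 99.1 and 102 RPKM in the Emx1 lineage and at 49.97, 52.97 and 52.2 RPKM in the forebrain translatome. Here too the groups were far apart. Its log2 fold change was 1.01 ± 0.04 (adjusted p = 1.3e-10). Sox5, an SRY-box factor, was at 44.7, 42.1 and 45.9 RPKM against 20.2, 23.9 and 24.4 RPKM, a log2 fold change of 1.01 ± 0.07 (adjusted p = 1.1e-08). Every Emx1-lineage library was above every forebrain library for it as well.

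Bcl11b was the deep-layer gene with the smallest difference. It was at 65.7, 59.997 and 62.9 RPKM in the Emx1 lineage and at 46.8, 53.2 and 51.6 RPKM in the forebrain translatome. The groups did not overlap, and the log2 fold change was 0.37 ± 0.06 (adjusted p = 7.8e-05). For this gene 791 of the 9489 genes had a larger change. A bulk level cannot tell fewer cells of a type from less RNA per cell, which holds for every difference given here.

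The promoters of Tbr1 and Fezf2, the genes with the largest log2 fold changes against the forebrain transcriptome, are shown so that the sequence before their start can be set beside the change. They are the 250 bases before the start that the RefSeq promoter table gives on GRCm38.p6, which in both genes lies inside the span given above, a span for all RefSeq models of the gene, predicted ones included. They are read 5′ to 3′ on the gene's strand, chr2:61804203-61804452 (plus strand) for Tbr1 and chr14:12345866-12346115 (minus strand) for Fezf2. Capitals mark TAATTA, the homeodomain core, which is its own reverse complement.
Tbr1: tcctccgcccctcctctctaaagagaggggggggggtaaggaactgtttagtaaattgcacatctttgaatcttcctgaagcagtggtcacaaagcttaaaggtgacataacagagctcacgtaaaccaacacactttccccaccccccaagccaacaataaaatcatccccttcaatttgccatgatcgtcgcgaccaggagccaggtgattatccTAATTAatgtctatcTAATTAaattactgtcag
Fezf2: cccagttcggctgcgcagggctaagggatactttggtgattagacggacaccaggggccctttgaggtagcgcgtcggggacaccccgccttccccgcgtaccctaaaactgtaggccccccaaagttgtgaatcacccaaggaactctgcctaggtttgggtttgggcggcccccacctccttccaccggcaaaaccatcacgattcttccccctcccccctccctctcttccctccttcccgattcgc
The Tbr1 promoter holds TAATTA at 33 and at 18 bases before the start, and 4.84% of 32851 mouse promoters of this length hold it. No other gene of the 9 has it in this window. The octamer ATGCAAAT, the letters POU factors read (1.6% of promoters on either strand), and the T-box letters AGGTGTGA (1.12%) were found in none of the 10 promoters of the 9 genes. The E-box CAGATG (14.4% of promoters) was found in 1 of the 2 Cux2 promoters, which also holds TATAAA (12.4%). The 10 promoters ranged from 39.6% to 80.0% G and C around a median of 52.4% over all promoters. These matches describe the letters of the window only.

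**Figure D1:**
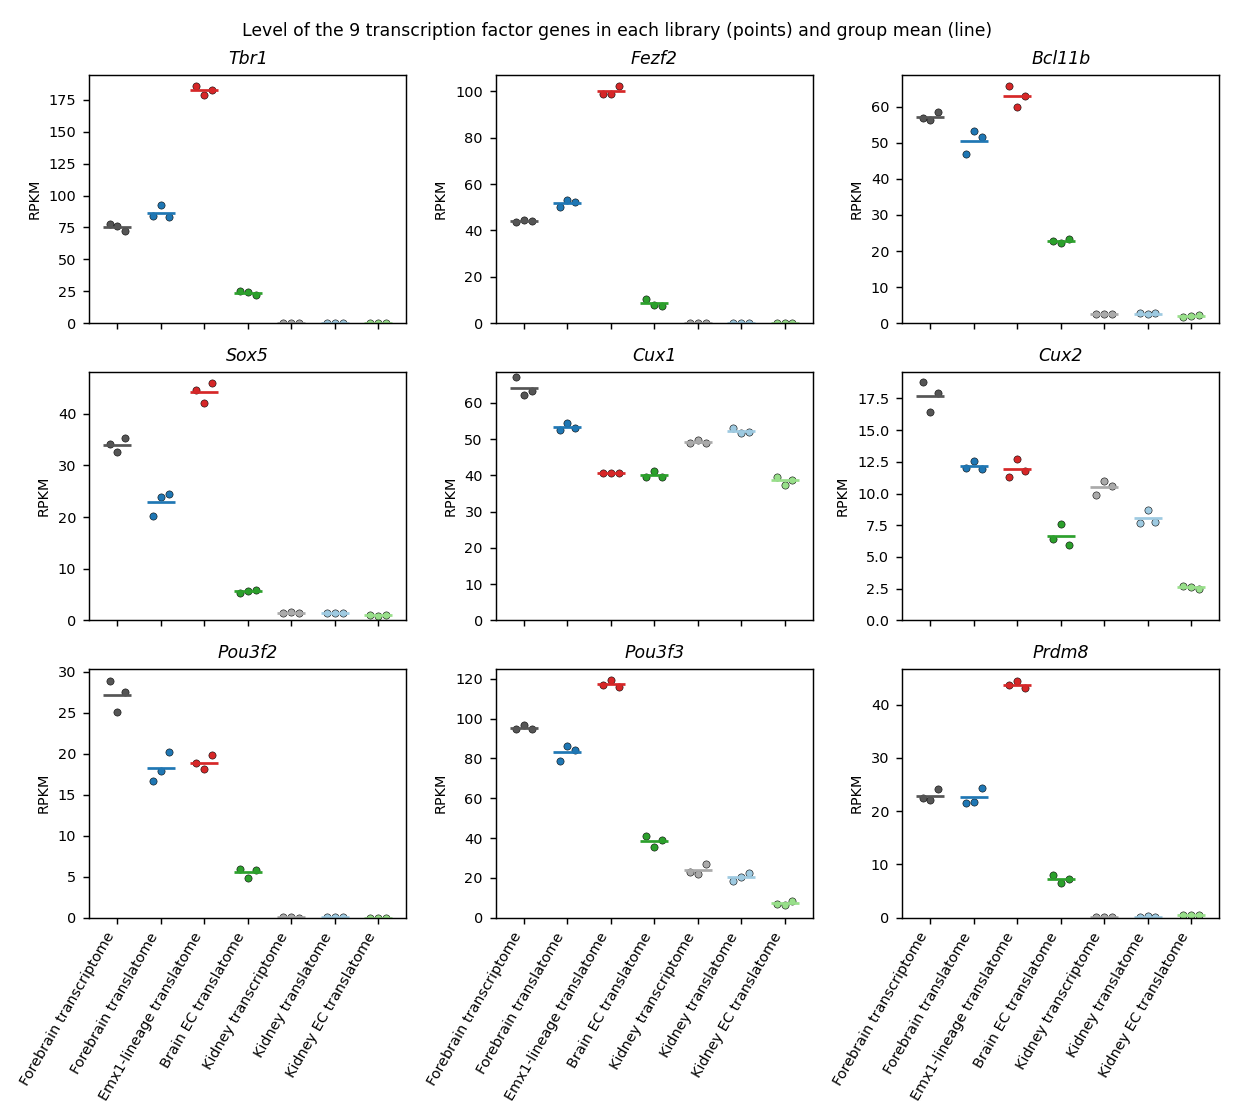
RPKM (linear axes from 0) of the 9 genes in each of the 21 libraries, where points are libraries, in replicate order within a group, and lines are the means of 3. Tbr1, Fezf2, Bcl11b, Sox5, Pou3f3 and Prdm8 reach their highest level in the 3 Emx1-lineage libraries, and Cux1 lies between 37.4 and 67.1 RPKM in all 21.

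The 4 upper-layer genes did not move together. Pou3f3 was higher in the Emx1 lineage, Cux1 was lower, and neither Cux2 nor Pou3f2 passed the test. Pou3f3 was at 117, 119 and 116 RPKM in the Emx1 lineage and at 78.9, 86.0 and 84.1 RPKM in the forebrain translatome. The lowest Emx1-lineage library was well above the highest of the whole forebrain, with a log2 fold change of 0.56 ± 0.05 (adjusted p = 1.3e-07).

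Cux1 was at 40.8, 40.7 and 40.7 RPKM in the Emx1 lineage and at 52.5, 54.4 and 53.1 RPKM in the forebrain translatome. All Emx1-lineage libraries were below all forebrain libraries, and the log2 fold change was -0.33 ± 0.04 (adjusted p = 1.3e-05). The deposited row for Cux1 combines 2 RefSeq transcripts of this gene. Its length, read back from reads and RPKM, ranged from 3163 to 3722 bases between libraries, with a CV of 5.1% where the other 8 genes had at most 0.34%. The transcripts of Cux1 therefore cannot be told apart here, and its RPKM is less certain than that of the others.

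Cux2 was at 11.3, 12.7 and 11.8 RPKM in the Emx1 lineage and at 12.0, 12.5 and 11.9 RPKM in the forebrain translatome. These values overlap, and the log2 fold change was 0.03 ± 0.05 (adjusted p = 0.72). Pou3f2 was at 18.8, 18.1 and 19.8 RPKM against 16.7, 17.9 and 20.2 RPKM, again overlapping, with a log2 fold change of 0.11 ± 0.06 (adjusted p = 0.20). The longest stretch of identical sequence between the longest transcripts of Pou3f2 and Pou3f3, and between those of Cux1 and Cux2, is 23 bases. Read on the same strand, these transcripts thus share no stretch of 50 bases. Other transcripts of Cux1 and Cux2 were not compared in this way.

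Prdm8 was at 43.7, 44.5 and 43.1 RPKM in the Emx1 lineage and at 21.6, 21.8 and 24.4 RPKM in the forebrain translatome. The groups were widely separated, with a log2 fold change of 1.01 ± 0.05 (adjusted p = 1.3e-09). On the opposite strand, exons of the noncoding gene A730035I17Rik cover 29.1% of the exon bases of Prdm8, and exons of Sox5os1 cover 9.25% of those of Sox5. The library kit does not mark strand, so reads of these overlaps cannot be assigned to either gene.

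In all, 6 of the 9 genes were called higher and 1 lower at an adjusted p below 0.001. The share of all 19006 genes tested that was called is 22.1% (9.2% higher and 12.8% lower). The median log2 fold change was 0.56 for the 9 genes and 0.00 over all genes. The same 7 genes stayed called in the same direction without any 1 of the 6 libraries and with DESeq2. With total counts as the scale, the called genes of the whole table were 29.9% higher instead of 41.7%.

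**Figure D2:**
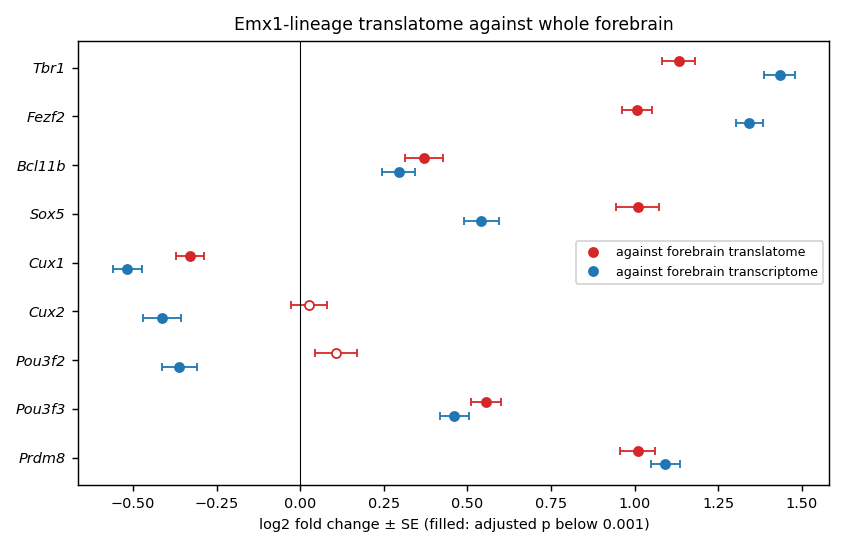
log2 fold change of the Emx1-lineage translatome against the forebrain translatome (red) and transcriptome (blue), with SE as bars, where filled points have an adjusted p below 0.001 and 3 libraries stand on each side. Tbr1, Fezf2 and Prdm8 lie above 1 on both references, whereas Cux2 and Pou3f2 are called lower only against the transcriptome.

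The balance between the named deep-layer and upper-layer genes can be read within a library, where scaling between libraries plays no part. The summed RPKM of the 4 deep-layer genes divided by that of the 4 upper-layer genes was 2.06 ± 0.06 (SD, n = 3) in the Emx1 lineage, with libraries from 1.99 to 2.10. It was 1.27 ± 0.03 in the forebrain translatome, 1.03 ± 0.02 in the forebrain transcriptome and 0.67 ± 0.02 in the brain EC translatome. No library of these 4 groups lay within the range of another group. The deep-layer sum was 212 ± 10.7 RPKM (SD) in the forebrain translatome and 389 ± 8.22 RPKM in the Emx1 lineage, and the upper-layer sum was 167 ± 5.86 and 189 ± 1.61 RPKM. Tbr1 alone made up 182 RPKM of the deep-layer sum in the Emx1 lineage. Cux1, whose RPKM is less certain, made up 53.3 RPKM of the upper-layer sum in the forebrain translatome. The further lists given next did not share this shift. Their summed RPKM, Emx1 lineage over forebrain translatome, had ratios of 1.18 (deep layer and subplate) and 1.42 (upper layer).

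Other genes of the cortical layers, named in lists that hold none of the 9, are given beside them. Of 12 further deep-layer and subplate genes, 6 were higher in the Emx1 lineage than in the forebrain translatome and 1 was lower, with a median log2 fold change of 0.35. The largest increases were those of Zfpm2, a cofactor of GATA factors also called Fog2 (0.78), Nfib, a nuclear factor I gene (0.77), and Otx1 (0.75). Foxp2, a forkhead factor of deep-layer and striatal neurons, was lower (log2 fold change -1.37), at 5.80 ± 0.22 RPKM against 15.8 ± 0.45 RPKM (SD, n = 3).

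Of 8 further upper-layer genes, 4 were higher and none was lower, with a median of 0.48. Lhx2 (log2 fold change 0.79), a LIM homeodomain factor, and Unc5d (0.65), a netrin receptor, were among those that were higher, and Rorb, a layer 4 gene, was at 1.46 ± 0.05 against 1.34 ± 0.15 RPKM and was not called.

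Of 10 genes of cortical glutamatergic neurons, 9 were higher and none was lower, with a median of 0.90. The bHLH factor Neurod6 (1.21), its relative Neurod1 (1.12) and Bhlhe22 (1.11) led this list. Slc17a6, the vesicular glutamate transporter VGLUT2, was at 18.2 ± 0.68 against 19.8 ± 0.94 RPKM and was not called. Neurod6 is also among the dorsal lineage markers, and Lhx2 is both in that list and in the upper-layer one, so these lists are not independent.

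**Figure D3:**
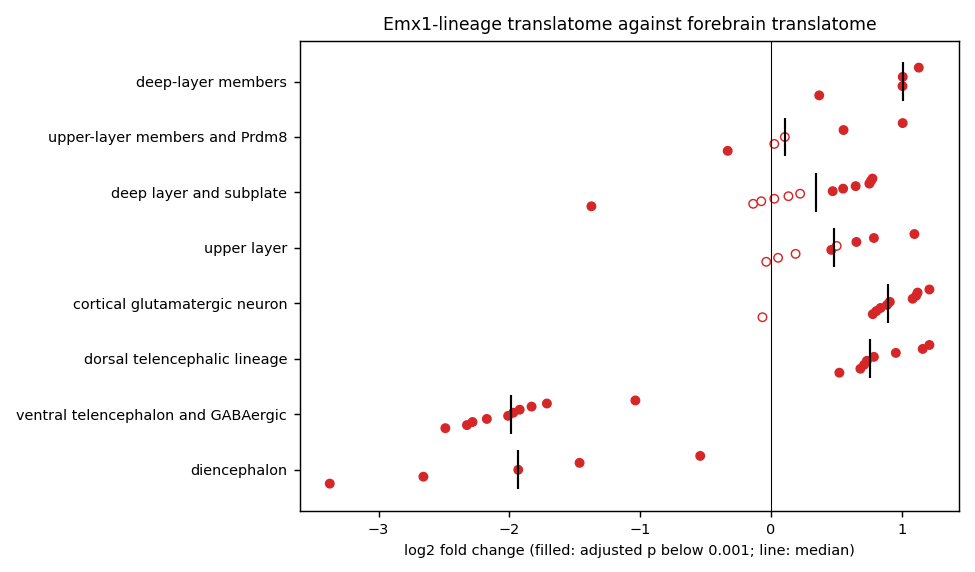
log2 fold change of the Emx1-lineage translatome against the forebrain translatome for the deep-layer genes, the upper-layer genes with Prdm8, 3 further gene lists and 3 marker lists, where each point is a gene, filled at an adjusted p below 0.001, and the line is the median of the list. The deep-layer genes have a median of about 1, whereas every ventral and diencephalic marker is at or below -0.54.

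Against the forebrain transcriptome, the other reference of the study, all 9 genes were called, 6 higher and 3 lower, where 49.3% of 19471 genes were called (25.4% higher and 23.8% lower). This comparison uses the same Emx1-lineage libraries as the previous one, so its values are set beside the others and are not a second measurement. The log2 fold changes of Tbr1 (1.43 ± 0.05), Fezf2 (1.34 ± 0.04) and Prdm8 (1.09 ± 0.04) were above 1, while that of Sox5 was 0.54 ± 0.05, against 1.01 with the translatome as reference. Pou3f3 was higher by 0.46 ± 0.04. Bcl11b was higher by 0.29 ± 0.05 (adjusted p = 6.4e-05), but not past the threshold without replicate 1 of the Emx1 lineage (0.25, adjusted p = 1.8e-03) with total counts (0.14, adjusted p = 0.014) or with all 21 libraries in 1 fit (0.19, adjusted p = 0.015).

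The 3 genes that were lower were all of the upper layers. The log2 fold change was -0.52 ± 0.04 for Cux1, -0.41 ± 0.06 for Cux2 (adjusted p = 8.6e-06) and -0.36 ± 0.05 for Pou3f2 (adjusted p = 1.4e-05). In RPKM, Cux2 stood at 18.8, 16.4 and 18.0 in the forebrain transcriptome and Pou3f2 at 28.9, 25.05 and 27.5, in both cases above every Emx1-lineage library. The change of reference thus moved Cux2 and Pou3f2 from not called to lower. Total counts as the scale shifted the median of all genes by -0.15 in this comparison and the share of higher calls from 51.6% to 39.6%, and all 21 libraries in 1 fit shifted them by -0.10 and to 43.1%.

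The forebrain translatome and transcriptome differ in what was sequenced, ribosome-bound or total RNA, and came from the same 3 tissue samples. In this comparison 1 of the 9 genes was higher and 4 were lower, and 37.1% of 19446 genes were called (18.6% higher and 18.5% lower). Fezf2 was higher in the translatome, with 43.6, 44.6 and 43.9 RPKM in the transcriptome below all 3 translatome values (log2 fold change 0.26 ± 0.05, adjusted p = 2.3e-04). Tbr1, at 78.1, 76.2 and 72.0 RPKM in the transcriptome, had a log2 fold change of 0.23 ± 0.06 (adjusted p = 4.2e-03), which passed the threshold with the tissue sample as a block (adjusted p = 5.9e-04) and with DESeq2 (adjusted p = 7.4e-04).

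The genes called lower had log2 fold changes of -0.54 ± 0.07 (Sox5 and Pou3f2 alike), -0.51 ± 0.06 (Cux2) and -0.26 ± 0.05 (Cux1). Sox5 was at 34.1, 32.5 and 35.3 RPKM in the transcriptome, and no translatome library exceeded 24.4 RPKM. Neither Bcl11b (-0.15 ± 0.06, adjusted p = 0.050) nor Pou3f3 (-0.17 ± 0.05, adjusted p = 0.014) nor Prdm8 (0.01 ± 0.06, adjusted p = 0.93) was called, although Pou3f3 was with DESeq2 (-0.19, adjusted p = 5.9e-04). Of the 5 calls, those of Fezf2 and Cux1 were lost when single libraries were left out. Fezf2 was not past the threshold without transcriptome replicate 1 or 3 or translatome replicate 2 or 3, and Cux1 without any of these or without translatome replicate 1, leaving as few as 3 calls. The Fezf2 call was also lost with all 21 libraries in 1 fit (0.23, adjusted p = 0.050). Within the lane that all 3 translatome libraries shared with transcriptome replicate 1, the log2 fold changes were 0.26 for Fezf2, -0.36 for Cux1 and -0.65 for Pou3f2, with Sox5, Cux2 and Pou3f2 called. The single transcriptome library of that fit is assumed to vary like the translatome libraries.

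Longer transcripts were on the whole lower in the forebrain translatome, and the genes differ in length. Among 1235 mRNAs of the length group of Bcl11b, Sox5 and Pou3f2 (6248 to 21883 bases), the median log2 fold change was -0.42, with quartiles of -0.76 and -0.10. Bcl11b, Sox5 and Pou3f2 lay within those quartiles. In the group of Tbr1 (3976 to 4739 bases) the median was -0.18 with an upper quartile of 0.09, and Tbr1 lay above it. Fezf2, Cux1, Cux2, Pou3f3 and Prdm8 lay within the quartiles of their own groups. The part of length in these differences was not tested.

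**Figure D4:**
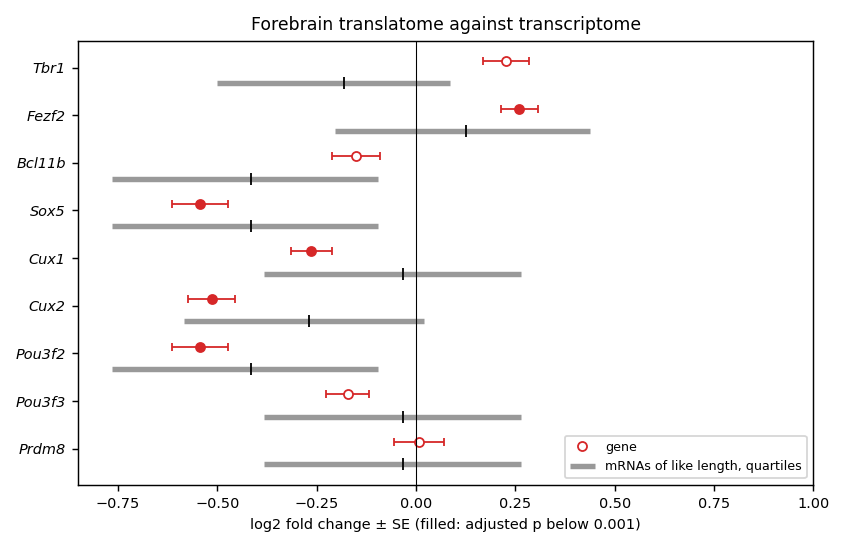
log2 fold change of the forebrain translatome against the transcriptome for each gene (red, SE as bars, filled at an adjusted p below 0.001), above a grey bar from the lower to the upper quartile of mRNAs of like length with a tick at their median. Tbr1 alone lies above the grey bar of its length group.

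In the brain EC translatome 8 of the 9 genes were lower than in the forebrain translatome and none was higher, where 46.2% of 19103 genes were called (24.8% higher and 21.4% lower). All 9 were still read in every EC library. Tbr1 was at 25.5, 24.1 and 22.5 RPKM, Pou3f3 at 41.1, 35.6 and 39.2 RPKM and Cux1 at 39.6, 41.2 and 39.4 RPKM in the brain EC libraries. In RPKM, scaled only by gene length and library depth, every brain EC library was below every forebrain translatome library for all 9 genes. These include Cux1, which was not called. The share of all genes so placed was not counted.

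The log2 fold changes ranged from -2.31 ± 0.11 for Fezf2 through -1.73 ± 0.09 for Sox5, -1.56 ± 0.07 for Tbr1, -1.43 ± 0.10 for Pou3f2 and -1.34 ± 0.09 for Prdm8. Those of Bcl11b (-0.86 ± 0.07), Pou3f3 (-0.82 ± 0.07) and Cux2 (-0.58 ± 0.09) were nearer to 0. Cux2 missed the threshold without translatome replicate 1 (adjusted p = 1.2e-03). Cux1 was not called (-0.05 ± 0.06, adjusted p = 0.47) though its RPKM ratio was 0.752. With total counts as the scale it was lower (-0.35, adjusted p = 2.3e-04), a scaling that moved the median of all genes by -0.30 and the share of higher calls from 53.7% to 36.1%.

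As ratios of mean RPKM, brain EC over forebrain translatome, the genes ran from 0.164 for Fezf2 to 0.546 for Cux2 and 0.752 for Cux1. For comparison, the summed level of the dorsal lineage markers had a ratio of 0.201, that of the ventral markers 0.216, that of the glutamatergic neuron list 0.208 and that of the endothelial markers 18.9. All 8 dorsal, all 10 ventral and all 10 glutamatergic genes were lower in the brain EC libraries, and none was at 0 there. Of the 12 further deep-layer and subplate genes 8 were lower and 1, Ldb2, was higher (log2 fold change 0.99), and of the 8 further upper-layer genes 5 were lower and 2 were higher, Plxnd1 (3.55), a semaphorin receptor also of endothelium, and Mef2c (0.46). The brain EC translatome had summed dorsal levels of 112 to 148 RPKM, against 629 to 645 RPKM in the forebrain translatome. The part of RNA from neural cells in the layer factor levels of the EC libraries was not tested.

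**Figure D5:**
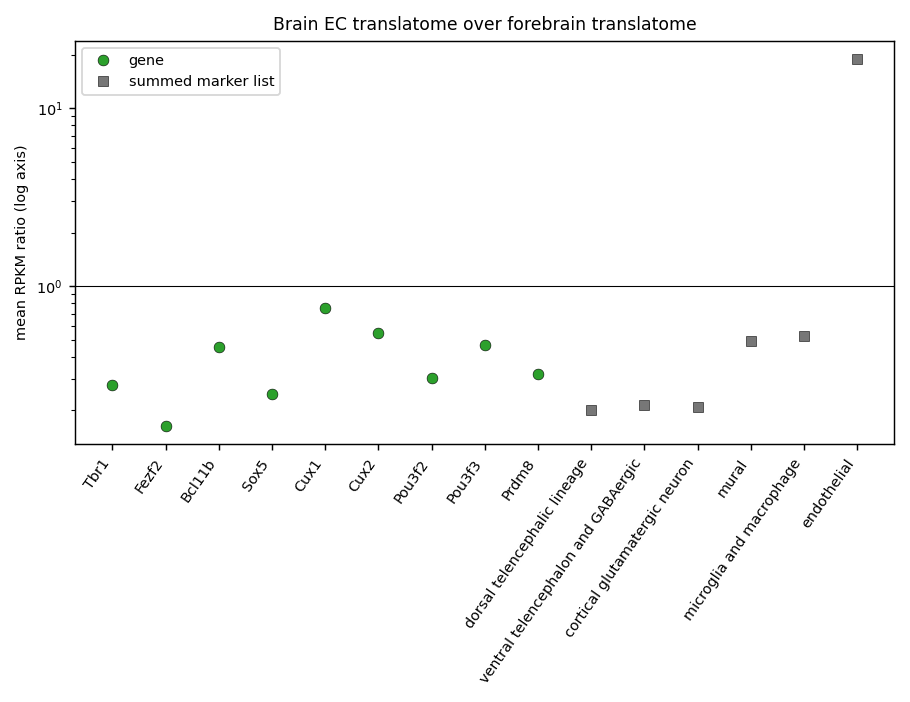
Ratio of mean RPKM in the brain EC translatome to that in the forebrain translatome (log axis, n = 3 libraries each) for the 9 genes (circles) and the summed levels of 6 marker lists (squares). Fezf2 at 0.164 is below the neural lists near 0.2, Cux1 at 0.752 is the nearest of the 9 to 1, and the endothelial list is at 18.9.

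Between organs, the genes divided into those with few or no kidney reads and those the kidney also held. In the transcriptome all 9 were higher in the forebrain (53.5% of 19841 genes called, 27.2% higher), and in the translatome 8 were (53.4% of 19241 genes called, 27.2% higher). Fezf2 had 0 reads in all 3 kidney transcriptome libraries against 15308 in the forebrain ones, so it was at least 4169-fold higher in the forebrain when 3 reads over the kidney group are taken as the floor. Tbr1 had 11, 5 and 6 reads in the kidney transcriptome, Pou3f2 had 6, 5 and 2, and Prdm8 had 4, 12 and 8. Their log2 fold changes between the transcriptomes were 10.87, 10.80 and 8.67, given without SE because the fitted SE is smaller than the counting error of so few reads.

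Bcl11b and Sox5 were low but present in the kidney transcriptome, at 2.53 ± 0.07 and 1.42 ± 0.11 RPKM (SD, n = 3), with log2 fold changes of 4.69 ± 0.04 and 4.77 ± 0.06 towards the forebrain. Pou3f3, which the nephron uses, was at 22.7, 21.9 and 26.9 RPKM in the kidney transcriptome, and the lowest forebrain library was at 94.6 RPKM (log2 fold change 2.19 ± 0.06). Cux2 was at 9.89, 11.0 and 10.6 RPKM in the kidney and higher in the forebrain by 0.95 ± 0.06. Cux1 was the gene nearest to equal levels. It was at 49.1, 49.7 and 48.9 RPKM in the kidney transcriptome (log2 fold change 0.44 ± 0.05, adjusted p = 5.4e-06), and in the translatomes, at 53.0, 51.7 and 52.1 RPKM in the kidney, the organs overlapped (0.09 ± 0.05, adjusted p = 0.11). With total counts its value was -0.10, a scaling that moved the median of all genes by -0.19 and the share of higher calls from 50.9% to 41.4% in the translatomes, and by -0.18 and from 50.8% to 41.5% in the transcriptomes.

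In the kidney, Cux2 was the only one of the 9 called between translatome and transcriptome, where 30.7% of 19336 genes were called (14.9% higher and 15.8% lower). It was at 7.70, 8.69 and 7.76 RPKM in the translatome, below every transcriptome library, with a log2 fold change of -0.38 ± 0.06 (adjusted p = 5.1e-04). The call was lost without transcriptome replicate 2 or 3 or translatome replicate 1 or 3. With the tissue sample as a block Pou3f3 was called lower as well (-0.21, adjusted p = 4.0e-06). Tbr1 had 16, 13 and 4 reads in kidney translatome replicates 1 to 3 and Prdm8 had 13, 16 and 5 in the same order. Pou3f2 had 7, 11 and 6 reads there and Fezf2 had 1, 4 and 0. Replicates 1 and 2 shared a lane with forebrain transcriptome libraries and replicate 3 did not, and the part of the lane in these reads was not tested.

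The difference between translatome and transcriptome was set against itself between the organs in an interaction fit of 12 libraries, where 6.47% of 20108 genes were called (2.35% higher and 4.12% lower). Cux1 was the gene called: it was lower in the translatome of the forebrain (-0.26) and had a log2 fold change of 0.07 ± 0.04 in the kidney, a difference of -0.35 ± 0.06 (adjusted p = 9.3e-04). The call did not hold without transcriptome replicate 1 or 3 of the forebrain, nor without any 1 forebrain translatome or kidney library. With the tissue sample as a block Sox5 (-0.59, adjusted p = 6.3e-06) and Pou3f2 (-2.24, adjusted p = 4.0e-04) were called too, the latter on 13 reads in the kidney transcriptome and 24 in the kidney translatome. No difference was called for the others, whose interaction values include -0.23 ± 0.08 for Bcl11b, -0.15 ± 0.09 for Cux2 and 0.02 ± 0.10 for Pou3f3.

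Kidney endothelial cells differed from the whole-kidney translatome in 3 of the genes, where 31.7% of 18940 genes were called (16.7% higher and 15.0% lower). Prdm8 was higher there. It had 79, 56 and 72 reads in the kidney EC libraries, all of them above the kidney translatome at 13, 16 and 5, although the latter libraries held fewer reads in total (log2 fold change 2.20 ± 0.32, adjusted p = 1.5e-04). Its level remained low, at 0.56 ± 0.01 RPKM. Cux2 (2.75, 2.62 and 2.50 RPKM, log2 fold change -1.26 ± 0.08) and Pou3f3 (7.00, 6.38 and 8.12 RPKM, -1.16 ± 0.10) were lower than in the whole kidney, and both groups were apart for each. Total counts moved the median of all genes by -0.37 in this comparison and the share of higher calls from 52.7% to 21.7%, and 6 of the 9 genes were then called.

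Pou3f2 had 0, 1 and 1 reads in the kidney EC translatome against 24 in the whole-kidney one, a ratio of 20.5 with a 95% exact counting interval of 5.10 to 179, and Fezf2 had 0 in all 3. Between the endothelial translatomes of both organs 8 genes were higher in the brain (37.0% of 19238 genes called, 20.1% higher and 16.9% lower). Fezf2 was at least 786-fold higher by the same floor, Prdm8 had a log2 fold change of 3.74 ± 0.12 and Sox5 one of 2.57 ± 0.09. Cux1 overlapped between them, at 37.4 to 39.7 RPKM in the kidney and 39.4 to 41.2 RPKM in the brain (-0.02 ± 0.07, adjusted p = 0.86).

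Ordered by mean RPKM over the 7 groups, Tbr1 and Fezf2 ran from the Emx1 lineage through the forebrain translatome, the forebrain transcriptome and the brain EC translatome to the kidney groups. Each step within the brain was larger than the spread of the libraries, and the kidney translatome overlapped the kidney transcriptome for both. Bcl11b, Sox5 and Pou3f3 also had the Emx1 lineage first and, of the brain groups, the EC translatome last, but the forebrain transcriptome stood above the translatome. For Prdm8, again highest in the Emx1 lineage, the forebrain transcriptome and translatome overlapped. Cux1, Cux2 and Pou3f2 were highest in the forebrain transcriptome, and for Cux2 and Pou3f2 the forebrain and Emx1-lineage translatomes overlapped in the next places. For Cux1 the Emx1-lineage, brain EC and kidney EC translatomes were last, each overlapping the next.

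The patterns over the 7 group means were compared by the root mean square difference of log2(RPKM + 1) after centring each gene, as a description. Among the 9, the closest pair was Bcl11b and Pou3f2 (0.26), a deep-layer with an upper-layer gene, followed by Bcl11b and Prdm8 (0.40). Tbr1 and Fezf2 differed by 0.48. Among 9466 other genes with at least 5 RPKM in the forebrain translatome, those nearest to Tbr1 were Mpped1 (0.19), Scrt2 (0.21) and Neurog2 (0.26), and those nearest to Fezf2 were Eomes (0.19), Nrn1 (0.23) and Mmd2 (0.25). Nearest to Prdm8 were Rbfox3 (0.23), Sybu (0.24) and Sox3 (0.27).

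For Sox5 the nearest were Tfap2c (0.10), Fam49a (0.16) and Dmrta2 (0.19), and for Bcl11b they were Cadps (0.08), Sox21 (0.11) and Adcyap1r1 (0.15). Slc17a6 (0.11), Srrm4 (0.14) and Sez6l (0.14) were nearest to Pou3f2, and Rab11fip4 (0.18), Mark1 (0.19) and Rimklb (0.20) to Pou3f3. The nearest to Cux2 were Scube1 (0.14), Dkk3 (0.16) and Mxi1 (0.18), and those to Cux1 were Sdccag3 (0.08), Mboat2 (0.09) and Rps6kb2 (0.11). With a pseudocount of 0.1 in place of 1, all 3 neighbours stayed for Cux1, 2 for Tbr1 and Cux2, 1 for Fezf2, Pou3f2, Pou3f3 and Prdm8, and none for Bcl11b and Sox5, so most of these neighbours depend on the pseudocount. Cux1 varied little between groups, so its neighbours are genes that vary little as well.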

How the data were processed

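RNA of 21 libraries was sequenced by the authors, mapped with RUM to the mouse genome (GRCm38, mm10) and summed over refGene transcripts. The deposited files give, for each gene, the read counts, which are not normalized, and the authors' RPKM, scaled by gene length and by the reads on mRNAs. Groups came from the sample titles. The 9 genes and the gene lists were chosen with earlier results of these data known.

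Counts were tested with edgeR 4.0.16 (quasi-likelihood, TMM scaling) in R 4.3.3 on the 6 libraries of each comparison (12 for the interaction), for genes with at least 1 read, with Benjamini-Hochberg adjustment over every gene of that test. A gene was called at an adjusted p below 0.001. A printed adjusted p is from this test unless another setting is named beside it. Fold changes are given ± SE and levels ± SD. DESeq2 1.42.0 was an alternative, as were RLE and total-count scaling, a filter of 10 reads in 3 libraries, 1 fit of all 21 libraries, a replicate block, the libraries of a shared lane, an adjusted p below 0.05 and leaving out each library. The code was checked on simulated counts at the same threshold. For the Emx1 lineage against the translatome, edgeR called 97 of 100 genes with a true log2 change of 1. It called 65 of 100 with a true change of 0.5, and made 12 false calls. For the brain EC comparison the numbers were 93, 31 and 3, so a small change can go uncalled. Genes with few reads were left out when the changed genes were drawn, so these numbers do not hold for such genes.

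Besides the 9 genes, the text names Emx1, up to 3 genes of each list with the largest change each way, the 3 genes nearest in pattern to each of the 9, and a few more chosen after their values were seen (Rorb, Slc17a6). A gene of these lists that the rule would name is not reported here. Same-numbered transcriptomes and translatomes come from 1 tissue sample, and their deviations from the group means correlated at 0.433 to 0.510 in the forebrain and 0.527 to 0.634 in the kidney. Those of the brain EC and kidney EC pools of the same sample number (1 to 3) did so at 0.200 to 0.319. Between the whole organs, forebrain and kidney pools of the same sample number (11 or 13) correlated at 0.220 to 0.356. The main fits between organs did not model this, and its source was not tested. Samples pooled organs, so p-values measure the spread between pools. Library totals were 21760652 to 79231692 reads. Counting intervals cover counting error only.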

Additional observations from a re-analysis of the deposited data

Results flagged for a closer look

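The translatome-to-transcriptome difference of Cux1 was -0.35 on the log2 scale in the forebrain relative to the kidney, and the test of the difference between the organs passed the threshold (edgeR adjusted p = 9.3e-04). The call was lost in 11 of the 12 fits that each left out 1 library. With the tissue sample as a block, Sox5 and Pou3f2 passed as well. Cux1 was lower in the forebrain translatome in 3 of 3 libraries against all transcriptome libraries, at 52.5 to 54.4 RPKM against 62.1 to 67.1 RPKM. In the kidney the translatome was at 51.7 to 53.0 RPKM and the transcriptome at 48.9 to 49.7 RPKM. The deposited row combines transcripts of different length, and their part in the difference was not tested.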

How the results depend on the processing

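The number of the 9 genes called kept within 1.5 times under every alternative, leaving out libraries included, for both Emx1-lineage comparisons, the brain EC comparison and the 3 comparisons between organs. Leaving out single libraries gave 7 to 7 calls for the Emx1 lineage against the translatome, 8 to 9 against the transcriptome, 3 to 5 for the forebrain translatome against transcriptome, 0 to 1 for the kidney, 3 to 3 for the kidney EC and 0 to 3 for the organ interaction. With the replicate block the kidney gave 2 calls, the interaction 3 and the forebrain 6, and there the block pairs libraries of 1 tissue sample. No call of another comparison changed. In those within 1 organ the block joins replicates of different sample numbers, so it is no test of a pairing. Between the endothelial groups it joins pools of the same sample number (1 to 3). Between the whole organs it joins the pools of number 11 but not those of number 13. Within the shared lane, with 3 libraries against 1 whose spread is assumed to be that of the others, the forebrain gave 3 and the kidney 0. Total counts gave 6 for the kidney EC and 2 for the interaction, all 21 libraries in 1 fit gave 5 and 2, and DESeq2 gave 3 for the interaction. At an adjusted p below 0.05 the counts were 8 for the forebrain, 3 for the kidney, 5 for the kidney EC and 7 for the interaction.

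Sign changes concerned genes that were not called. Cux2 against the translatome became -0.025 with total counts and lay between -0.017 and 0.060 without single libraries. Prdm8 in the forebrain translatome against transcriptome became -0.0109 with RLE scaling, -0.0094 with the read filter, -0.0110 with DESeq2, -0.0158 with total counts, -0.0179 with all 21 libraries, and -0.057 to 0.051 without single libraries. Cux1 became -0.10 between the organ translatomes with total counts, -0.071 to 0.019 in the kidney EC without single libraries, and between the endothelial groups 0.10 with all 21 libraries and -0.063 to 0.027 without single libraries. Sox5 in the kidney became -0.041 within the lane and -0.015 to 0.086 without single libraries. Bcl11b in the kidney EC became -0.34 with total counts, -0.0018 with all 21 libraries and -0.073 to 0.107 without single libraries, and Pou3f3 in the interaction was -0.061 to 0.087 without them. Over all genes, an adjusted p below 0.05 gave 8580 calls instead of 4191 for the Emx1 lineage against the translatome, 10855 instead of 7221 for the forebrain, 9754 instead of 5929 for the kidney, 10509 instead of 6000 for the kidney EC, 11469 instead of 7127 between endothelial groups and 4647 instead of 1301 for the interaction. The block gave 9496 in the kidney and 3445 for the interaction, the shared lane 3736 in the kidney, DESeq2 2709 and leaving out 1 library as few as 850 for the interaction. All 21 libraries in 1 fit moved the median of all genes by 0.12 between endothelial groups and the share of higher calls from 54.4% to 61.2%. The cause of these changes was not tested. Depth limited Tbr1, Fezf2, Pou3f2 and Prdm8 in the kidney, where few reads stand behind each value.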
